A study of Mus musculus with 10 samples.

Results

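NF-kB signaling was followed through 42 genes of the 55487 in the deposited count table, chosen by name as parts of the pathway or as genes it is known to induce. They comprise 5 NF-kB subunits, 6 IkB proteins, 23 upstream receptors, adaptors and kinases, and 8 induced or feedback genes. All 42 passed the filter on low counts and were among the 13740 genes tested.

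The samples were spinal cord CX3CR1+ cells of 5 male C57BL/6 mice, taken at the peak of experimental autoimmune encephalomyelitis (EAE), a model of multiple sclerosis raised by immunization with a myelin peptide in complete Freund's adjuvant plus pertussis toxin. All mice carried the Arg1tm1Lky allele, in which the Arg1 locus drives an enhanced yellow fluorescent protein (eYFP), and were 8 to 12 weeks old. From each mouse, viable CD3- Ly6G- CD45+ CX3CR1+ cells were split by eYFP into an ARG1+ library of 200000 cells and an ARG1- library of 100000 cells, which gives 5 libraries a group and 1 pair an animal. The comparison asks which transcripts differ between cells that express arginase 1 and neighbouring cells that do not. The reporter marks cells in which Arg1 is active and not a lineage, and the gate does not part blood-derived cells from resident macrophages and microglia.

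NF-kB is a family of dimeric transcription factors that IkB proteins hold in the cytoplasm. Receptors for TNF, interleukin-1 and microbial products recruit adaptors and ubiquitin ligases, these switch on the IKK kinase complex, and IKK marks IkB for destruction so that the dimers enter the nucleus. In macrophages the pathway drives cytokine and chemokine genes, and it also induces its own inhibitors, among them the genes for IkB-alpha (Nfkbia) and A20 (Tnfaip3).

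Promoter windows are shown because the pathway controls several of its own genes through kappa-B sites. RefSeq windows on GRCm38.p6, from 250 bases before to 50 bases after the transcription start, were matched by symbol for 35 of the 42 genes, and Map3k8, Nfkb1, Nfkbiz, Malt1, Relb, Ripk2 and Ikbkb had no entry. The 10-base kappa-B consensus, searched on both strands with matches at overlapping positions merged, lay in a window of 14 of the 35 genes (40.0%), against 12.2% of the tested genes with a window (1099 of 9027) and 8.46% of all 32851 windows. It lay in 4 of 5 IkB genes, 2 of 3 subunit genes, 5 of 8 induced genes and 3 of 19 upstream genes. These are the promoters of the called genes Nfkbie and Nfkb2, picked by size of change among those holding the consensus, and of Rel, Nfkbia and Il6, picked after their values were seen. Capitals mark the consensus, each line reads 5′ to 3′ along the gene, and the coordinates are those of GRCm38.p6.
Nfkbie (chr17:45555450-45555749, forward strand): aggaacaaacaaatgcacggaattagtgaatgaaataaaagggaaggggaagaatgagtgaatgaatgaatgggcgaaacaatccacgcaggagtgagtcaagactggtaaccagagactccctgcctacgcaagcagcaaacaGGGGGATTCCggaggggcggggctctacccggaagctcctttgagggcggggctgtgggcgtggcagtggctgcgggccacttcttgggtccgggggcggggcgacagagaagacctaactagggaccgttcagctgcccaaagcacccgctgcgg
Nfkb2 (chr19:46304487-46304786, forward strand): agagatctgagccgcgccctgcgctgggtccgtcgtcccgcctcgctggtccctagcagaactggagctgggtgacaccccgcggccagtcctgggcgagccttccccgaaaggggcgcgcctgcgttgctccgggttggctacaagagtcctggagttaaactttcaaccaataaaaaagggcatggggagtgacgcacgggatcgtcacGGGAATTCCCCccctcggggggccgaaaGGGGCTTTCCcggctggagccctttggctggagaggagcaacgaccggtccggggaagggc
Rel (chr11:23770920-23771219, reverse strand): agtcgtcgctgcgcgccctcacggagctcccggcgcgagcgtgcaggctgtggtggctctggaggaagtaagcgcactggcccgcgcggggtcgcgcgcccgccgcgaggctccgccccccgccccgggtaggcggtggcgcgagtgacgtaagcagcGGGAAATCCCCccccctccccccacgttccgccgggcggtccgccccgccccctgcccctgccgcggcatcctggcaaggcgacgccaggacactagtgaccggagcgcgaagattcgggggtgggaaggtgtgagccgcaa
Nfkbia (chr12:55492598-55492897, reverse strand): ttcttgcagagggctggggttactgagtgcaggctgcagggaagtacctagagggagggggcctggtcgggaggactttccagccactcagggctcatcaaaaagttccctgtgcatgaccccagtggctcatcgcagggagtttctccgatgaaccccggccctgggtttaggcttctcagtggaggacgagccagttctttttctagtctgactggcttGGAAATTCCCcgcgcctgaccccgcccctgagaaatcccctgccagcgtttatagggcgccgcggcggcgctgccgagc
Il6 (chr5:30012864-30013163, forward strand): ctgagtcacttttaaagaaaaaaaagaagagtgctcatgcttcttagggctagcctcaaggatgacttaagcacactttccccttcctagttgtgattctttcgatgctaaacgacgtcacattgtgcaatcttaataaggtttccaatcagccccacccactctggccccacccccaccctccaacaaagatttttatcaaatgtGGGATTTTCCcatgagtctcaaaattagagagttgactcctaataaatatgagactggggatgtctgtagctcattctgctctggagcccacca

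The capitals begin 106 bases before the start of Nfkbie, 92 before that of Rel, 29 before that of Nfkbia and 44 before that of Il6. The Nfkb2 window shown held 2 runs, 39 and 11 bases before its start, and other windows of that gene, not shown, held further runs. Of the 10 genes with a window that were called lower in ARG1+ cells without the animal as a term, 2 held the consensus. Of the 25 not called in that fit, 12 did. With the animal as a term, Rel, Bcl10 and Tnip1 of those 12 were lower and Nfkbia, Tnfaip3, Il6 and Irak1 higher. The called genes Nfkb1, Relb, Malt1 and Ikbkb had no window, so no contrast is drawn from these counts. A match is a run of letters and was not tested as a binding site.

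Levels are read counts scaled to library size (CPM, with TMM factors), and a difference is called at a false discovery rate (FDR) below 0.05 in edgeR's quasi-likelihood test, adjusted over all 13740 genes. Arg1 itself stood at 587 to 1050 CPM in the ARG1+ libraries and at 14.3 to 26.9 in the ARG1- libraries, without overlap. Library totals were 28870482 to 33826355 counts for ARG1+ and 8396863 to 35455643 for ARG1-, the lowest being the ARG1- library of animal m234. That library also stood apart in its 7 microglia markers, whose summed level was 3110 CPM against 833 to 1500 in the other ARG1- libraries and 763 to 1180 in the ARG1+ libraries. Values with and without it are given where it decides a result.

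Across the 42 genes the subunits, 2 of the inhibitors and a set of receptors, adaptors and kinases were lower in ARG1+ cells. The 8 genes grouped as induced or feedback had no common direction. These roles are not exclusive, since NF-kB also induces Nfkbie, Traf1 and Nfkbia, which are counted under other roles. Of those, Nfkbie and Traf1 were called lower, and Nfkbia was higher in each mouse. Without the animal as a term, 14 of 42 genes fell (33.3%), against 6.15% of all genes tested, and 0 rose in edgeR, against 6.82%. At an unadjusted p below 0.05 edgeR had 2 higher, and DESeq2 and limma-trend each called 0 higher, with 17 and 14 lower. The changes were small: the called genes fell by 0.18 to 0.55 on the log2 scale, and 0 of 42 passed the further limit of 1 log2 in edgeR, DESeq2 or limma-trend, which 1.45% of all genes passed in either direction. The median difference over the 42 genes was -0.14 log2, against -0.0022 over all genes tested. Libraries of the same mouse moved together, so the fit was repeated with the animal as a block, and the counts became 21 lower (18.3% of all genes) and 6 higher (16.8%). The block kept all 14 calls and added 7 genes that were lower and 6 that were higher.

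Values were also compared library by library, without a model. Values of the groups were fully apart for 12 of 42 genes, all lower in ARG1+, against 5.2% of all genes, and for 0 genes higher in ARG1+, against 6.15%. Within mice, 22 genes were lower in ARG1+ cells in all 5 animals (21.0% of all genes were) and 6 were higher in all 5 (20% were). The other 14 genes were mixed. The unblocked count depended on which mice were in the fit: it was 4 without animal m6, 5 without animal m2, 6 without animal m236 and 8 without animal m235, whereas all 14 calls were kept without animal m234. It was also 8 without the ARG1+ library of animal m2, m6 or m236 and 9 without the ARG1- library of animal m2. The count over the whole table also fell without animal m6, to 284 of 13626 genes lower from 845 of 13740. With the block, 18 to 21 genes were lower whichever animal was left out.

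**Figure D1:**
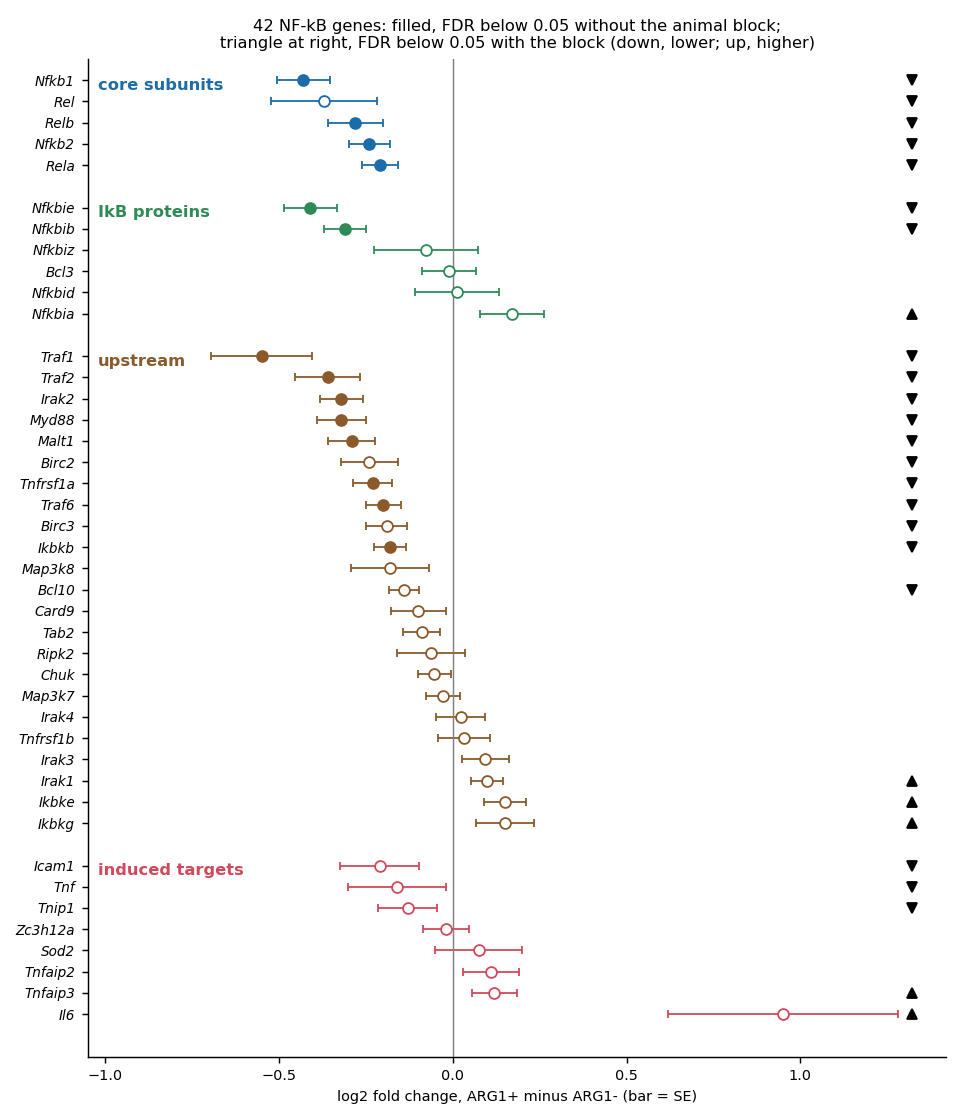
Log2 fold change of each of the 42 genes, ARG1+ minus ARG1-, with its standard error (bars) from the edgeR fit without the animal block on 5 libraries a group. Filled points passed an FDR of 0.05 in that fit, triangles mark genes that passed with the block, and all filled points lie left of 0.

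In bulk RNA, fewer cells of a type and less RNA per cell cannot be told apart, which holds for each level that follows. Other cell types also moved with the groups. Beside each count of called markers below stand the shares over all genes tested. Without the block 6.15% were lower and 6.82% higher, and with it 18.3% and 16.8%. Of 10 mature dendritic cell markers 4 were lower in ARG1+ libraries, including Ccr7 at 1.07 ± 0.181 against 7.26 ± 3.27 CPM (SD, n = 5 each). The summed level of that list was 368 to 450 against 354 to 451 CPM. Most of it came from Tmem123 (180 ± 10.1 against 181 ± 7.05 CPM) and Anxa3 (208 ± 28.5 against 168 ± 30.6 CPM). The sum therefore does not follow the markers that fell. Of the 7 conventional dendritic cell markers tested 5 were lower, led by Flt3 (0.289 ± 0.14 against 3.63 ± 1.47 CPM). Flt3, Dpp4 and Zbtb46 stayed below 1 CPM in every ARG1+ library, as did Il4i1 of the mature list. These genes met the filter only through ARG1- libraries, which favoured a lower call. The conventional list summed to 289 to 400 against 362 to 493 CPM, mostly through Irf8 (306 ± 40.6 against 372 ± 46.2 CPM). Another 3 of that list, Xcr1, Cd209a and Itgae, were below the filter. Of 7 monocyte markers 4 were lower, with sums of 2030 to 8000 against 2470 to 7380 CPM. Of 3 tested border macrophage markers 2, Pf4 and Mrc1, were higher, led by Pf4 (17.3 ± 6.16 against 4.46 ± 2.31 CPM). That list summed to 700 to 1360 against 322 to 802 CPM. Most of the sum came from F13a1 (1020 ± 238 against 594 ± 193 CPM, FDR 0.0511 without the block). Cbr2 and Folr2 were below the filter, as were Lyve1 and Cd163, which were near 0. Of 3 tested B and plasma cell markers 2 were lower, led in level by Ighm (6.96 ± 2.32 against 26.4 ± 10.9 CPM), while Ms4a1 was near 0. The other lower marker, Jchain, had a median of 0.355 CPM in ARG1+ libraries and met the filter through ARG1- libraries. None of 10 T and NK cell markers passed the filter. Of 8 neutrophil markers 5, Ly6g among them, were below the filter, yet the list summed to 131 to 321 against 65.7 to 186 CPM and was higher in ARG1+ cells of all 5 mice, through Mmp8 (206 ± 67.6 against 114 ± 47.9 CPM, FDR 0.0878 without the block), while S100a9 fell (0.242 ± 0.1 against 2.44 ± 2.53 CPM). S100a9 too was below 1 CPM in every ARG1+ library and met the filter only through ARG1- libraries. All 7 microglia markers had a negative difference, 0 called in edgeR without the block and 5 lower with it, and their sum was lower in ARG1+ cells of all 5 mice. All 9 general myeloid markers were expressed, and without the block Lyz2, Cd68, Itgam and Mertk were higher. With the block 5 were higher and 4 lower. The lower ones were Cx3cr1, Ptprc, Csf1r and Fcgr1, each lower in all 5 mice. Cx3cr1 stood at 139 ± 66.8 against 281 ± 176 CPM (FDR 0.153 without and 9.24e-05 with the block). The part of these cells in the NF-kB values was not tested. Of the stress-linked immediate early genes, Fosb was higher in ARG1+ libraries (1500 ± 132 against 1200 ± 106 CPM) and so was Fos (log2 difference 0.38), while Jund fell by 0.32, and the part of cell handling was not tested either.

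All 5 NF-kB subunits were lower in the ARG1+ library of every mouse (21.0% of all genes were). Without the block 4 of the 5 passed the test, against 6.15% of all genes called lower. Nfkb1 (ENSMUSG00000028163, chr3:135584655-135691547, reverse strand) encodes p105, the precursor of p50 (gene positions are those of the deposited table, on GRCm38). Its level in animals m2, m6, m234, m235 and m236 was 303, 270, 311, 252 and 265 CPM in ARG1+ cells and 404, 369, 412, 366 and 339 CPM in ARG1- cells. The groups did not overlap, and Nfkb1 fell by 0.43 on the log2 scale (SE 0.0758, FDR 0.00417), a level 1.35-fold higher in ARG1- cells. Its call held in all 22 alternative settings, which changed the tool, the scaling, the filter, the block or the libraries.

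Rel (ENSMUSG00000020275, chr11:23736847-23770970, reverse strand) encodes c-Rel, a subunit abundant in blood cells. It stood at 376, 295, 408, 273 and 289 CPM in ARG1+ cells and at 498, 363, 546, 360 and 350 CPM in ARG1- cells, in the same order of animals. Animals m2 and m234 were high in both groups, so the groups overlapped and the difference of -0.37 log2 did not pass without the block (FDR 0.13), whereas within mice it passed (FDR 8.38e-05 with the block). Relb, the partner of p52 in the non-canonical branch, stood at 70.0, 76.4, 81.9, 68.1 and 66.5 CPM against 83.6, 89.0, 104, 81.7 and 82.7 CPM. Only the ARG1+ library of animal m234 reached into the ARG1- range, and the difference was -0.28 log2 (SE 0.0791, FDR 0.0392). That call was lost in 11 of the 15 fits that left out libraries, including the fit without the ARG1- library of animal m234, where the difference was -0.21 log2. With the block its FDR was 0.000244.

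Nfkb2 (ENSMUSG00000025225, chr19:46304320-46312385, forward strand) encodes p100, the precursor of p52. It stood at 263, 259, 275, 246 and 238 CPM in ARG1+ cells against 320, 305, 314, 296 and 277 CPM in ARG1- cells, without overlap, a difference of -0.24 log2 (FDR 0.0214). Part of its exons, 19.7%, lies opposite exons of other annotated genes, Psd among them, and the sources used here do not state whether strand was used in counting. Rela (ENSMUSG00000024927, chr19:5637483-5648130, forward strand) encodes p65, the main activating subunit. It stood at 112, 112, 119, 118 and 105 CPM against 125, 129, 140, 134 and 128 CPM, again without overlap (-0.21 log2, FDR 0.0219). The Nfkb2 call was lost in 5 and the Rela call in 6 of the 15 fits that left out libraries, and both kept their direction in all of them.

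**Figure D2:**
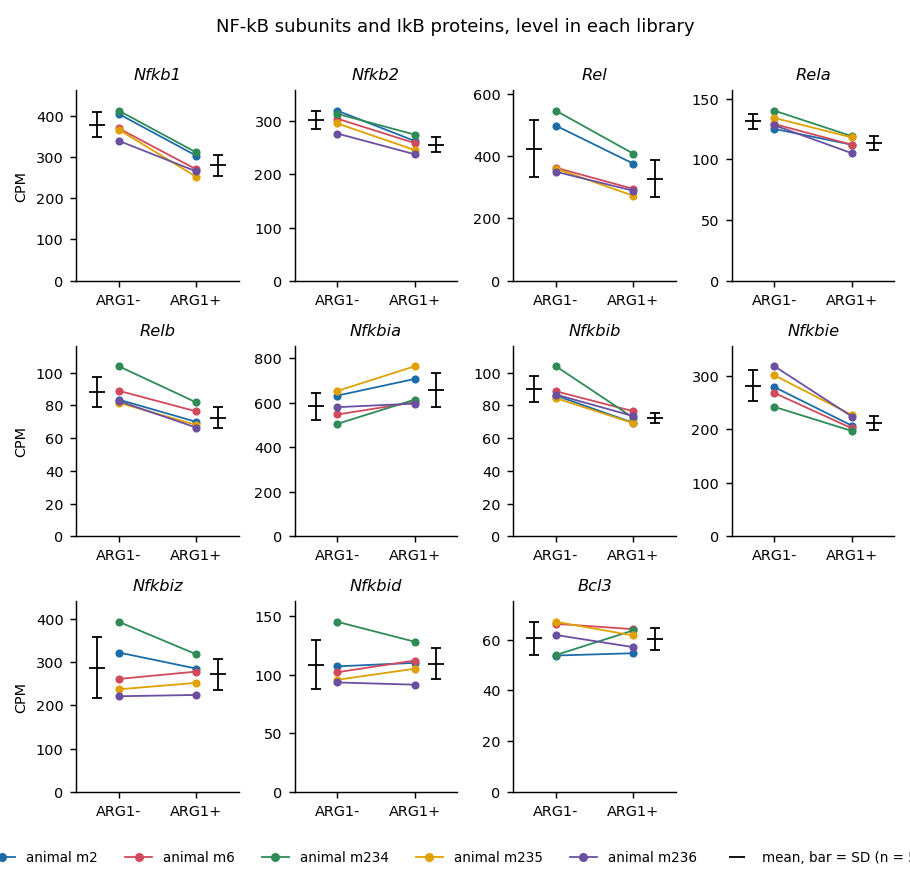
Level in CPM (vertical axes, from 0) of the 5 subunit genes and 6 IkB genes in ARG1- and ARG1+ libraries, with a line for each of the 5 animals and the group mean with its SD in black. Every line falls for Nfkb1, Nfkb2, Rel, Rela, Relb, Nfkbib and Nfkbie, and every line rises for Nfkbia.

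The inhibitors did not move as a group: 2 of 6 fell (33.3%, against 6.15% of all genes without the block), and the most abundant had the opposite sign. Nfkbie encodes IkB-epsilon, an inhibitor that NF-kB itself induces. It stood at 207, 202, 197, 227 and 224 CPM in ARG1+ cells and at 279, 268, 242, 301 and 318 CPM in ARG1- cells. The highest ARG1+ value lay below the lowest ARG1- value, and Nfkbie fell by 0.41 on the log2 scale (SE 0.0763, FDR 0.00537). Nfkbib encodes IkB-beta, which responds less to the pathway. It stood at 69.4, 76.5, 72.5, 69.2 and 73.5 CPM against 86.1, 88.7, 104, 84.5 and 86.7 CPM (-0.31 log2, FDR 0.00725), the highest value being the ARG1- library of animal m234. Without that animal the call held, as in all 22 settings for both genes. Of the Nfkbib exons 14.8% lie opposite exons of Ccer2.

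Nfkbia had the highest level per kilobase of exon of the 42 genes, 417 CPM per kilobase in ARG1+ and 370 in ARG1- cells. Its levels were 708, 603, 615, 765 and 597 CPM in ARG1+ cells and 633, 548, 506, 654 and 581 CPM in ARG1- cells. The ARG1+ library was the higher in each of the 5 mice, although the groups overlapped, and the difference of 0.17 log2 passed with the block (FDR 0.0121) and not without it (FDR 0.239). The ratio of Nfkb1 to Nfkbia CPM ran from 0.329 to 0.505 in ARG1+ and from 0.559 to 0.815 in ARG1- libraries. Rela to Nfkbia ran from 0.155 to 0.193 against 0.197 to 0.277, and Nfkbie to Nfkbia from 0.293 to 0.375 against 0.44 to 0.546. None of these ratios overlapped between groups, which describes transcripts and not protein. Nfkb1, Rela and Nfkbie were each lower without overlap and Nfkbia was higher in each mouse. The separation of the ratios largely follows from those values and is not a further result.

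The atypical IkB proteins act mostly in the nucleus and gave no call in either fit. Nfkbiz, which co-activates a subset of cytokine genes, stood at 271 ± 35.5 against 287 ± 70.8 CPM (SD, n = 5 each), with the highest library, 393 CPM, again the ARG1- library of animal m234. Nfkbid stood at 109 ± 13.2 against 109 ± 21.2 CPM and Bcl3 at 60.3 ± 4.18 against 60.6 ± 6.43 CPM. For these 3 genes the sign of the difference turned when libraries were left out, so no direction is given.

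Upstream of the dimers, 8 of 23 genes fell without the block (34.8%, against 6.15% of all genes), and with it 11 were lower (47.8%, against 18.3%) and 3 higher (13%, against 16.8%). Traf1, an adaptor of TNF family receptors that NF-kB induces, had the largest difference. It stood at 21.1, 17.4, 23.5, 26.8 and 20.4 CPM in ARG1+ cells and at 32.3, 30.7, 21.6, 39.1 and 34.6 CPM in ARG1- cells. In 4 of 5 mice the ARG1- library was well above its partner, and in animal m234 it was slightly below. The difference was -0.55 log2 (SE 0.145, FDR 0.0288). This call was lost in 10 of the 15 fits without libraries and rests on as few as 184 counts in a library.

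Traf2, the adaptor that links TNF receptors to IKK, stood at 20.2, 21.0, 22.1, 20.8 and 18.3 CPM against 24.5, 25, 33.2, 25.9 and 23.5 CPM, without overlap (-0.36 log2, FDR 0.0274). The ARG1- library of animal m234 lay far above the rest, and without it the difference was -0.27 log2 and was still called, but the call was lost in 7 of the 15 fits that left out libraries, among them those without animal m2, m6, m235 or m236. Tnfrsf1a, the main TNF receptor, stood at 253, 277, 260, 285 and 278 CPM in ARG1+ cells and at 291, 326, 316, 329 and 329 CPM in ARG1- cells, without overlap (-0.23 log2, FDR 0.0203). Its call was lost in 4 of the 15 fits that left out libraries and without the filter on low counts. The other TNF receptor gene, Tnfrsf1b, was more abundant and did not pass in either fit, with 656 ± 47.8 CPM against 641 ± 54.8 CPM (FDR 0.805).

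Genes of the Toll-like and interleukin-1 receptor arm were split. Myd88, the shared adaptor of those receptors, stood at 94.1, 96.5, 95.7, 115 and 94.0 CPM in ARG1+ cells and at 120, 127, 120, 136 and 113 CPM in ARG1- cells. Only the ARG1+ library of animal m235 (115 CPM) and the ARG1- library of animal m236 (113 CPM) crossed, and Myd88 fell by 0.32 on the log2 scale (SE 0.0698, FDR 0.0132). Irak2, a kinase of the same complex, stood at 167, 170, 192, 184 and 187 CPM against 209, 214, 218, 237 and 243 CPM, without overlap. It too fell by 0.32 on the log2 scale (SE 0.0626, FDR 0.00783), a call that held in all 22 settings. Traf6, the ubiquitin ligase they recruit, fell by 0.20 on the log2 scale (115 ± 5.70 against 132 ± 5.36 CPM, FDR 0.0242). The Traf6 call was lost in 8 of the 15 fits that left out libraries and without the filter on low counts (FDR 0.109), and the Myd88 call in 2, without animal m2 or m6.

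The other IRAK genes did not follow Irak2. Irak1 was higher in ARG1+ cells in all 5 mice, by 0.0987 log2 with the block (FDR 0.0402), and did not pass without it (118 ± 4.26 against 110 ± 4.23 CPM, FDR 0.182). Irak3, which restrains the arm, had 45.4 ± 2.89 against 42.4 ± 3.56 CPM (FDR 0.382), and Irak4 had 45.2 ± 2.26 against 44.3 ± 4.36 CPM (FDR 0.859). Neither passed with the block.

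Malt1, Bcl10 and Card9 encode the complex that carries signals from C-type lectin receptors to IKK. Malt1 stood at 420, 381, 412, 393 and 351 CPM in ARG1+ cells and at 474, 451, 448, 532 and 482 CPM in ARG1- cells, without overlap, and fell by 0.29 on the log2 scale (SE 0.0675, FDR 0.0181), a call lost without animal m2, m6, m235 or m236. Bcl10 did not overlap either, with 79.4 to 87.6 against 91.0 to 95.4 CPM. Its difference of -0.14 log2 just missed the limit without the block (FDR 0.0504) and passed with it (FDR 0.0131). Card9 did not pass, with 69.2 ± 4.62 against 74.3 ± 8.34 CPM (FDR 0.425).

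The IKK complex itself was uneven. Ikbkb, the kinase that acts on IkB in the canonical branch, fell by 0.18 on the log2 scale, from a range of 140 to 156 CPM in ARG1- cells to 129 to 137 CPM in ARG1+ cells (FDR 0.0277), and its call was lost in 10 of 15 fits without libraries. Chuk, the other catalytic kinase, had 66.3 ± 2.57 against 68.7 ± 2.67 CPM (FDR 0.481). Ikbkg, the regulatory subunit NEMO, and Ikbke, an IKK-related kinase, were each higher in ARG1+ cells in all 5 mice and passed only with the block, Ikbkg at 33.2 ± 3.67 against 30.0 ± 2.52 CPM (FDR 0.0409) and Ikbke at 161 ± 10.1 against 146 ± 9.52 CPM (FDR 0.0146).

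Birc2 and Birc3 encode the cIAP ubiquitin ligases of the TNF receptor complex. Birc2 stood at 33.4, 34.3, 37.9, 37.7 and 33.6 CPM in ARG1+ cells and at 41.6, 39.5, 51.5, 41.1 and 37.3 CPM in ARG1- cells, lower in all 5 mice with the groups overlapping through animals m234, m235 and m236. Its difference of -0.24 log2 passed with the block (FDR 0.0057) and not without it (FDR 0.0718). Birc3 behaved alike, with 99.9 to 116 against 116 to 130 CPM and an FDR of 0.00119 with and 0.0522 without the block. Of the Birc3 sequence 7.56% of 50-base stretches also occur in other genes, Birc2 among them. The kinases Map3k7 (70.1 ± 2.48 against 71.6 ± 3.48 CPM), Map3k8 (26.1 ± 3.14 against 29.9 ± 5.11 CPM) and Ripk2 (36.5 ± 5.23 against 38.3 ± 3.44 CPM) and the TAK1-binding protein Tab2 (134 ± 5.69 against 142 ± 8.06 CPM) passed in neither fit.

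The 8 induced and feedback genes gave 0 calls in edgeR without the block (1 at an unadjusted p below 0.05, and 0 in DESeq2 and limma-trend), and with it 2 were higher (25%, against 16.8% of all genes) and 3 lower (37.5%, against 18.3%). Il6 (ENSMUSG00000025746, chr5:30013114-30019981, forward strand), the cytokine interleukin-6, had the largest difference of all 42 genes. It stood at 29.2, 16.1, 25.1, 24.2 and 8.51 CPM in ARG1+ cells and at 14.4, 9.07, 8.93, 15.0 and 5.46 CPM in ARG1- cells. Mice differed widely and the groups overlapped, animal m236 being lowest in both, yet the ARG1+ library was the higher in each mouse. The difference was 0.95 log2 without the block (SE 0.33, FDR 0.0776) and 0.91 with it (SE 0.103, FDR 1.42e-04). Over the 15 fits that left out libraries, without the block, the difference ran from 0.78 to 1.15 log2 (FDR 0.0247 to 0.181). It passed without animal m236 (0.98 log2) and without the ARG1+ library alone of that animal (1.15 log2). Neither DESeq2 (FDR 0.0648) nor limma-trend (FDR 0.0951) called Il6, and the smallest library held 76 Il6 counts. Il6 was among the least abundant of the 42 genes per kilobase of exon, with 8.49 CPM per kilobase in ARG1+ and 4.35 in ARG1- cells.

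Tnf, the cytokine that itself triggers the pathway, went the other way. It stood at 142, 144, 168, 132 and 97.0 CPM in ARG1+ cells and at 169, 147, 184, 145 and 118 CPM in ARG1- cells, lower in each of the 5 mice although the groups overlapped. The difference was -0.16 log2 without the block (FDR 0.48) and passed with it (-0.17 log2, FDR 0.0119). The ratio of Il6 to Tnf CPM was accordingly higher in ARG1+ cells in all 5 mice, from 0.0877 to 0.206 against 0.0463 to 0.103, with overlap between groups. Icam1, an adhesion molecule, stood at 281, 337, 340, 286 and 281 CPM against 307, 338, 466, 340 and 312 CPM and passed only with the block (-0.20 log2, FDR 0.0236). The ARG1- library of animal m234 was far above the others, both libraries of animal m6 were nearly equal, and 20.2% of the Icam1 exons lie opposite exons of Gm47079. The Icam1 log2 ratio was -0.46 in animal m234 and -0.13, -0.25 and -0.15 in animals m2, m235 and m236. Leaving out libraries without the block gave differences of -0.26 to -0.0867 log2, none of them called (lowest FDR 0.19).

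Tnfaip3 and Tnip1 encode A20 and its partner ABIN-1, which together limit the pathway, and their signs were opposite. Tnfaip3 stood at 758, 712, 803, 807 and 707 CPM in ARG1+ cells and at 673, 663, 769, 691 and 689 CPM in ARG1- cells, higher in each mouse (0.12 log2, FDR 0.0416 with and 0.231 without the block). Tnip1 stood at 102, 105, 112, 123 and 112 CPM against 110, 111, 117, 149 and 121 CPM, lower in each mouse (-0.13 log2, FDR 0.0301 with and 0.314 without the block). For both genes the groups overlapped, and the difference passed only within mice.

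The remaining 3 induced genes passed in neither fit. Tnfaip2, the most abundant of the 42 genes in CPM, had 957 to 1140 CPM in ARG1+ and 871 to 1090 in ARG1- cells (FDR 0.403). Sod2, the mitochondrial superoxide dismutase, had 437 ± 55.5 against 415 ± 78.2 CPM (FDR 0.728), and 21.0% of its 50-base stretches occur in other annotated genes. Zc3h12a, a ribonuclease that degrades Il6 mRNA, had 130 ± 9.57 against 132 ± 9.55 CPM (FDR 0.875).

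**Figure D3:**
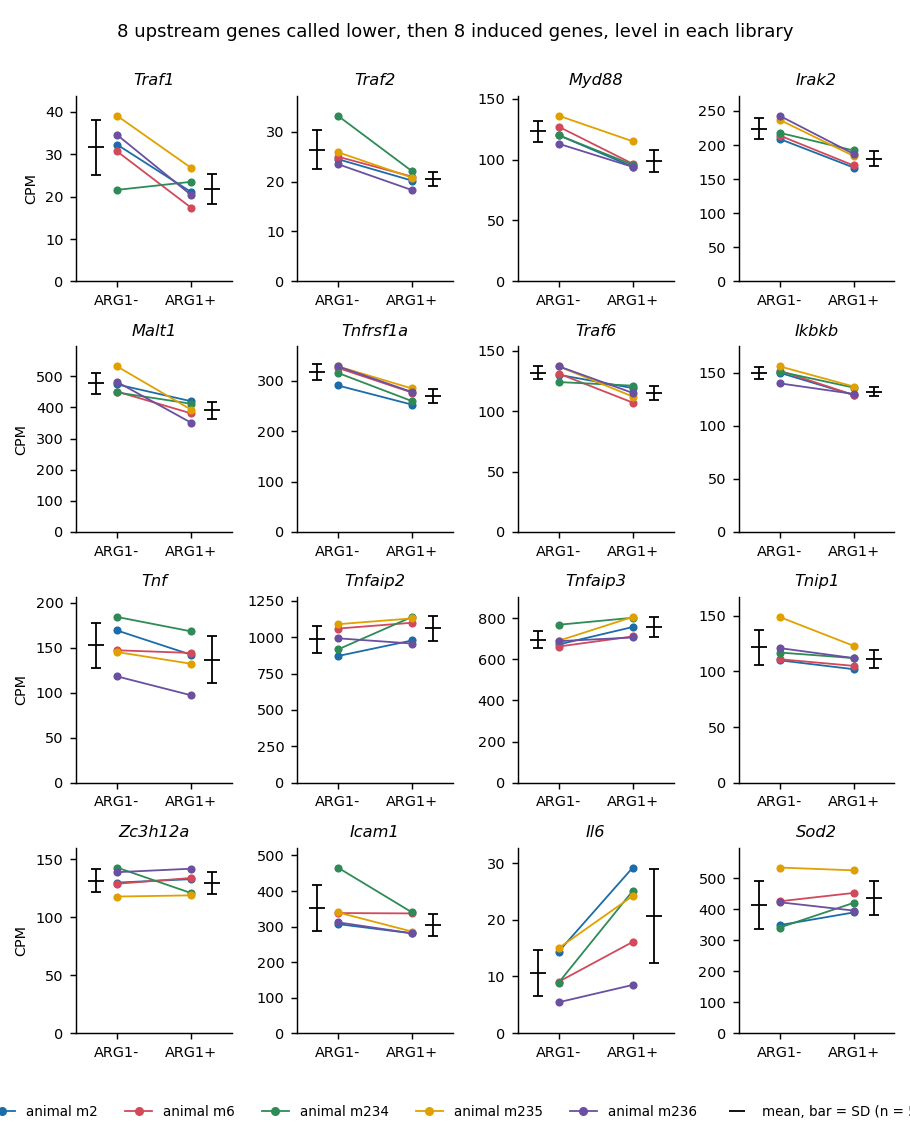
Level in CPM (vertical axes, from 0) of the 8 upstream genes called lower without the block, from Traf1 to Ikbkb, and of the 8 induced genes, from Tnf to Sod2, with a line for each of the 5 animals and the group mean with its SD in black. All upstream lines fall except that of Traf1 in animal m234 (21.6 to 23.5 CPM), and all Il6 lines rise.

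The mice also differed among themselves. The same animal was highest in both groups for 23 of 42 genes and lowest in both for 21, and for 13 genes the highest in both was animal m234. Among ARG1- libraries animal m234 was highest for 19 genes and animal m235 for 15. The median log2 ratio of ARG1+ to ARG1- CPM over the 42 genes was below 0 in each animal, from -0.14 in animals m234 and m236 to -0.071 in animal m6. For the 5 subunits it ran from -0.23 in animal m6 to -0.34 in animal m234, and for the 8 induced genes from -0.074 to 0.098.

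**Figure D4:**
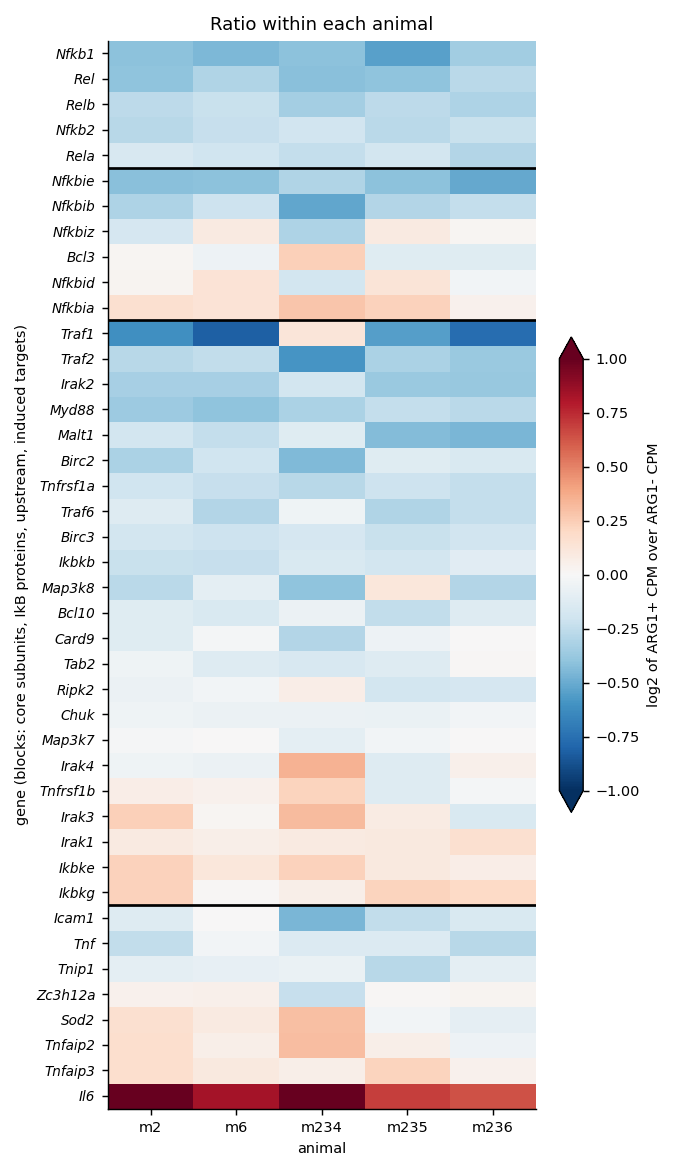
Log2 ratio of ARG1+ to ARG1- CPM for each of the 42 genes (rows, in blocks by role) within each of the 5 animals (columns), with colours saturating at 1. The subunit block is blue in all 5 animals, the Il6 row is red in all 5, and most other rows of the induced block are paler.

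Other genes of the pathway, from a separate list of 48 of which 46 were tested, gave 2 higher and 9 lower without the block (4.35% and 19.6%, against 6.82% and 6.15% of all genes) and 3 higher and 22 lower with it (6.52% and 47.8%, against 16.8% and 18.3%). The lower genes included the receptor Cd40 (32.7 ± 7.62 against 58.7 ± 11.4 CPM, -0.84 log2, FDR 0.0069), the bacterial sensor Nod2 (44.8 ± 2.62 against 69.2 ± 6.31 CPM, -0.63 log2, FDR 0.00031) and the TRIF adaptor Ticam1 (15.5 ± 1.38 against 23.6 ± 3.06 CPM, -0.60 log2, FDR 0.00217). Prkcd, the most abundant, fell by 0.37 on the log2 scale (FDR 0.0372). The 2 that rose were Nlrc3, a restraint on the pathway (5.63 ± 1.06 against 2.58 ± 0.355 CPM, 1.13 log2, FDR 0.00143), and the interleukin-1 receptor Il1r1 (7.39 ± 1.79 against 3.67 ± 0.993 CPM, 0.97 log2, FDR 0.0123). The median over the 46 genes was -0.12 log2.

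Other genes that NF-kB is known to induce were divided, as the members were. Of 36 tested from a list of 40, 5 rose and 6 fell without the block (13.9% and 16.7%, against 6.82% and 6.15% of all genes), and 11 were higher and 14 lower with it (30.6% and 38.9%, against 16.8% and 18.3%), with a median of -0.049 log2. The neutrophil-attracting chemokines rose: Cxcl1 (104 ± 23.6 against 41.6 ± 8.84 CPM, 1.31 log2, FDR 0.000895), Cxcl3 (55.6 ± 18.8 against 26.5 ± 10 CPM, 1.04 log2, FDR 0.0262) and Cxcl2 (1930 ± 243 against 1260 ± 176 CPM, 0.62 log2, FDR 0.00538). Among called genes the largest decreases were in Il12b, a subunit of interleukin-12 and interleukin-23 (0.72 ± 0.439 against 2.28 ± 1.30 CPM, -1.69 log2, FDR 0.0251), Cd83, a marker of activated antigen-presenting cells (89.8 ± 29.0 against 202 ± 108 CPM, -1.16 log2, FDR 0.0307) and the transporter Slc2a6 (40.5 ± 4.46 against 66.9 ± 7.08 CPM, -0.72 log2, FDR 0.000513). Il12b lay near the floor, with 109 counts in all ARG1+ and 319 in all ARG1- libraries. It met the filter on low counts through its ARG1- libraries (1.18 to 4.53 CPM, against 0.363 to 1.46), which favoured a lower call. The most abundant, ferritin heavy chain Fth1, passed only with the block (13600 ± 1410 against 10900 ± 2000 CPM, FDR 0.113 without and 0.00444 with it).

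**Figure D5:**
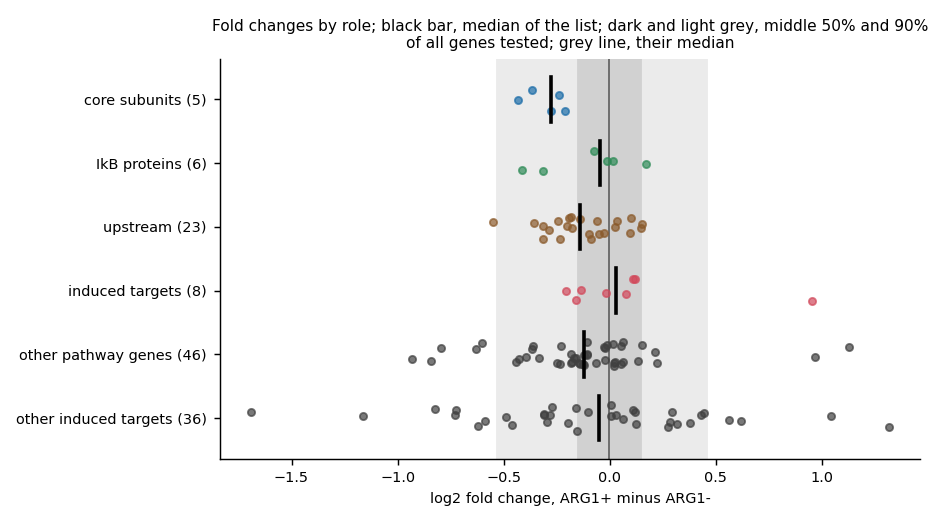
Log2 fold change, ARG1+ minus ARG1-, of the genes in each role and in the lists of other pathway genes (46 tested) and other induced targets (36 tested), a point a gene, with the list's median as a black bar. The dark and light grey bands hold the middle 50% and 90% of the 13740 genes tested, -0.149 to 0.147 and -0.529 to 0.458, and the median of the 5 subunits, -0.28, lies left of the dark band.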

How the data were processed

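The authors deposited raw counts per gene for all 10 libraries: single-end reads were aligned with STAR 2.7.10b (per the labels' processing notes) to GRCm38 and counted over annotated exons in union mode, and the sources used here do not state whether strand was used in counting. Groups and animal numbers come from the sample titles. Counts were analysed in edgeR 4.0.16 (R 4.3.3): a gene was kept where 3 or more libraries exceeded 1 CPM, TMM scaling, glmQLFit and glmQLFTest, Benjamini-Hochberg adjustment over 13740 genes. The tested genes hold 99.82% of all counts. CPM in the text are TMM-scaled, and levels per kilobase use merged exon lengths of the GENCODE basic annotation of GRCm38.

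Both libraries of a number come from the same mouse. Their residuals from the group means correlated across genes at 0.415 to 0.706, against at most 0.0837 between different mice, so the animal was used as a block in a repeat of each fit. No pair of libraries of a group was as close as counting error allows (lowest chi-square per degree of freedom 17.8). Other alternatives were DESeq2 1.42.0, limma-trend (limma 3.58.1), other size factors and filters, and leaving out libraries. The scripts were tested on simulated data.

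The members and gene lists were chosen with earlier results of these data known. All members are named. Values in each library are given for those called in either fit or without overlap, by size of change within each role, and of the other lists the 3 largest called changes in each direction and the most abundant gene are named.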

Additional observations from a re-analysis of the deposited data

Results flagged for a closer look

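In 7 of the 86 groups of 5 libraries checked (the members and Arg1) a member had a library far from the other 4 by Dixon's test, which chance gives in about 1 in 20 groups. In ARG1- cells of animal m234, the shallowest library, Nfkbib (104 CPM), Traf2 (33.2 CPM), Tnfaip3 (769 CPM) and Icam1 (466 CPM) were far above the other ARG1- libraries and Irak4 (36.8 CPM) far below. In ARG1+ cells of animal m235, Myd88 (115 CPM) was far above and Tab2 (124 CPM) far below the others. The Nfkbib call was kept in all leave-out fits. The Traf2 call was kept without animal m234 and lost without animal m2, m6, m235 or m236, and the Myd88 call was kept without animal m235 and lost without animal m2 or m6.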

How the results depend on the processing

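Nfkb1, Nfkbib, Nfkbie and Irak2 kept their call in all 22 settings. DESeq2, limma-trend, RLE size factors, filterByExpr, library totals and the replicate block each kept all 14 lower calls, and with library totals the table was called 705 higher and 1281 lower instead of 937 and 845. The paired fit (replicate block) moved the counts to 6 members higher, 22 other pathway genes lower, and 11 other induced targets higher and 14 lower, and it ended no member's call. Chosen after seeing the data, the paired fit without animal m2, m6, m234, m235 or m236 gave 2, 4, 6, 3 and 4 members higher, and 10, 9, 11, 10 and 10 other induced targets higher and 11, 13, 15, 13 and 12 lower. Without animal m6, m234, m235 or m236 it gave 16, 22, 15 and 17 other pathway genes lower. Without animal m2 that count was nearer to the 9 lower of the fit without the block. Without the filter 1 member was higher (Il6) and 8 lower. Under library totals the members' median was -0.18 log2, and Nfkbid (-0.0282), Tnfrsf1b (-0.0063) and Irak4 (-0.0174) turned below 0, while without the filter Bcl3 turned to 0.00152. The cause was not tested.

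Leaving out libraries without the block gave 0 to 1 members higher, 4 to 16 members lower, 0 to 1 members higher by over 1 log2, a median of -0.15 to -0.084 log2 (-0.084 without the ARG1- library of animal m234), 1 to 2 other pathway genes higher, 3 to 6 other induced targets higher and 2 to 6 lower. Signs turned within these ranges for Nfkbiz (-0.16 to 0.0639), Nfkbid (-0.0478 to 0.14), Bcl3 (-0.0669 to 0.0321), Tnfrsf1b (-0.0126 to 0.0781), Irak4 (-0.045 to 0.0631), Zc3h12a (-0.0528 to 0.0326) and Sod2 (-0.000458 to 0.19), none of them called. Depth limits Il6 and Traf1 most, with 76 and 184 counts in their smallest libraries.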
